A study of Mus musculus with 35 samples.

Results

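Whole lungs of mice that inhaled 40 ppm styrene were compared with whole lungs of mice that breathed clean air (0 ppm). There were 5 arrays at 40 ppm and 5 at 0 ppm, which make up 10 of the 35 arrays of a 7-dose series, and the members were taken by their dose labels alone. Both groups were adult male wild-type C57Bl/6 mice from Taconic, without any transgene, and an age in weeks was not given. Each animal was held in its own wire-mesh cage, inhaled styrene or air once for 6 h, and was killed on the following morning. The 5 arrays at 20 ppm and the 5 at 10 ppm, from mice of the same description, served as lower doses for direct comparison. The titles of the 40 ppm and 0 ppm arrays carry 10 different animal numbers. Total lung RNA was hybridised to 3'-biased Affymetrix arrays, and the values are log2 signals. Each gene was read from its brightest probe set among those paired with exactly 1 gene, which gave 17097 genes. The comparison asks which transcripts of the lung differ on the day after a single exposure to 40 ppm, the next to highest dose of the series.

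Styrene is a volatile aromatic hydrocarbon. In the mouse lung it is oxidised mainly in club cells, the secretory cells of the small airways, by the cytochrome Cyp2f2, and its epoxide is cleared by epoxide hydrolase and by conjugation to glutathione. Cells that meet reactive metabolites raise antioxidant enzymes through the transcription factor NRF2. Injured airway epithelium replaces lost cells by division, and inflamed lung makes chemokines, acute phase proteins and, where interferon is present, a set of antiviral proteins. Interferon raises antiviral genes that carry a short element in their promoters. Genes of the later cell cycle are held down in resting cells through another promoter element, the cell cycle genes homology region.

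The sequences below are promoters of genes with large differences between 40 ppm and 0 ppm, shown because they hold the element of their group. They run 5' to 3' on the gene's strand from 250 bases before the transcript start to 50 bases after it, from RefSeq on GRCm38.p6. The interferon element was searched on both strands as GAAA, any 2 bases and GAAA again, and its matches are in capitals. They read TTTC, 2 bases and TTTC where the element lies on the opposite strand. Ifit1 (chr19:34640639-34640938, plus strand) held 2 matches that did not overlap, Rsad2 (chr12:26456403-26456702, minus strand) held 1, and Cxcl10 (chr5:92348840-92349139, minus strand) held 1.
Ifit1: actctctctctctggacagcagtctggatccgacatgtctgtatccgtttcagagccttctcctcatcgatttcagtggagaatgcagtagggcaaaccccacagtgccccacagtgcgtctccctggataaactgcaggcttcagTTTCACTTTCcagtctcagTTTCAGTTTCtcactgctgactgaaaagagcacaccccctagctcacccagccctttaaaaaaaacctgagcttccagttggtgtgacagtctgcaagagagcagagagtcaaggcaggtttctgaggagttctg
Rsad2: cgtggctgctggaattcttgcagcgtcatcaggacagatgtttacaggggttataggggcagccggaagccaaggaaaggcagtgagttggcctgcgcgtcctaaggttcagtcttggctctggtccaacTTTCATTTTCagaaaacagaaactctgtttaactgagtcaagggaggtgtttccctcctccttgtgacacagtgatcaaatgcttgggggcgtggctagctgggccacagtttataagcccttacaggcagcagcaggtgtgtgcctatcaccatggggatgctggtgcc
Cxcl10: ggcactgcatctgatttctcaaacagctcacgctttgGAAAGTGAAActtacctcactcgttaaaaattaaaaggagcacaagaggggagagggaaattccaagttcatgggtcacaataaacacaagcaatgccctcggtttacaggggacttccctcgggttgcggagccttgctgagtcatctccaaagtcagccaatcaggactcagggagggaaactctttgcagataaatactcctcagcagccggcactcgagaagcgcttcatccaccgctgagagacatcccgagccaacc
Among the 10 interferon effector genes with a promoter in the table, 5 (50%) held the element, against 3.59% of the 13605 genes with a promoter, 5.64% of the genes that rose at 40 ppm and 3.71% of those that fell. Oasl1, the effector with the largest difference, held none in its window. Cdk1 (chr10:69352863-69353162, minus strand) is shown for the cell cycle element, searched as TTTGAA or TTCAAA, of which it held 2.
Cdk1: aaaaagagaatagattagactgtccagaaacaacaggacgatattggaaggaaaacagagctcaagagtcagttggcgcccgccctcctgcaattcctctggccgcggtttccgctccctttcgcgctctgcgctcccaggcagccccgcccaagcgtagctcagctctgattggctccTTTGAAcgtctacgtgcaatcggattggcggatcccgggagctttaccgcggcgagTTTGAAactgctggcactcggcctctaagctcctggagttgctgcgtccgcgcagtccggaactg
This element was in 17 of the 23 mitosis genes with a promoter (73.9%), against 15.6% of all genes with one. It was in 15.7% of the genes that rose at 40 ppm and 14.8% of those that fell. The letters TTTCCCGC, bound by E2F factors, were in 4 of 23 DNA replication genes (17.4%), against 1.84%, and the antioxidant response letters TGACNNNGC were in 7 of 17 NRF2 target genes (41.2%), against 16.1%. In the genes that rose and those that fell, the shares were 2.82% and 2.08% for TTTCCCGC, and 18.3% and 15.3% for TGACNNNGC. The sterol element TCACNCCAC was in 1 of 12 sterol synthesis genes (8.33%), against 1.5%, 1.32% of the genes that rose and 1.48% of those that fell. Each was searched on both strands, and a match describes the letters only.

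Of the 17097 genes, 1315 (7.69%) rose and 862 (5.04%) fell at 40 ppm against 0 ppm, together 2177 (12.7%), at a limma adjusted p under 0.05. Limma is a linear model fitted to all genes and to all 35 arrays at once, with p adjusted by Benjamini-Hochberg over the 17097 genes, and "rose", "fell" and "changed" are used only of genes past this threshold. The differences were mostly small. Among the changed genes 510 rose and 328 fell by at least 1.5-fold, and 179 rose and 67 fell by at least 2-fold. The median difference over all genes was 0.01 on the log2 scale. In 2239 genes (13.1%) the values of the groups did not overlap, with 7.65% of all genes wholly higher and 5.45% wholly lower at 40 ppm. Array weights raised the number of changed genes to 3883. It was 3095 without the 120 ppm group, 2754 with only the groups compared and 1622 without replicate 4 of the 40 ppm group.

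**Figure D1:**
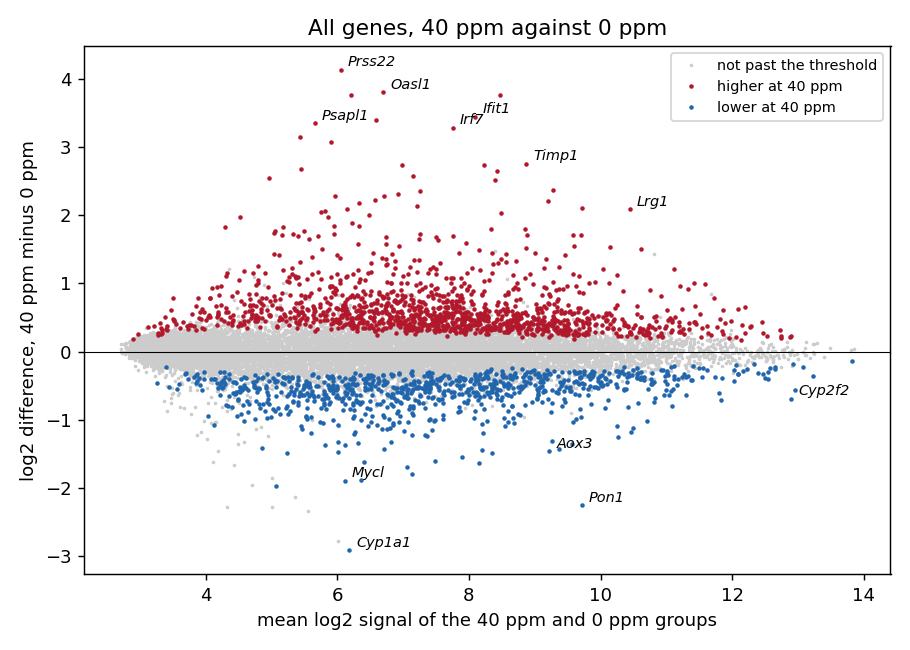
Log2 difference between the mean signals at 40 ppm and 0 ppm (y axis) against the mean log2 signal of both groups (x axis) for the 17097 genes, with genes past the limma threshold in red (1315 higher at 40 ppm) and blue (862 lower). The largest log2 differences reach 4.13 for Prss22 and -2.91 for Cyp1a1, and most called genes lie within 1 unit of 0.

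The arrays were checked before the genes were read. Lung markers were bright on all 10 arrays: Sftpc, the surfactant protein C gene of alveolar type 2 cells, averaged 13.86 ± 0.04 at 40 ppm and 13.83 ± 0.01 at 0 ppm (SD, n = 5 each). Poly-A spike-ins averaged 6.52 at 40 ppm and 6.56 at 0 ppm (two-sided exact permutation p = 0.611). Of 8 array summaries, 1 had a p under 0.05 before adjustment, the hybridisation controls, at 9.67 at 40 ppm and 9.81 at 0 ppm (two-sided exact permutation p = 0.0159, 0.127 adjusted over the 8). In 2 arrays of the 0 ppm group, replicates 3 and 4, liver transcripts stood out. Alb, which encodes serum albumin, had 4.80, 4.23, 5.32, 4.43 and 4.34 at 40 ppm, against 4.94, 4.38, 11.19, 10.47 and 6.04 at 0 ppm. The mean over 10 hepatocyte markers lay between 4.05 and 4.36 at 40 ppm, and at 0 ppm it was 8.82 and 7.73 on those 2 arrays and 3.94 to 4.33 on the other 3. Without those 2 arrays, an alternative chosen after the data were seen, 1233 genes changed (782 higher, 451 lower), and 1223 of them were among the 2177. Named genes that lost their call without these arrays were Fabp1, Dcn, H2-DMa, H2-Aa, H2-Ab1, Siglecf, Cirbp, Tent5b, Mt1, Tek, Cd3g, Alas2, Ppbp, Per3, Cry1, Cdkn1a, Agr2, Fasn, Napsa, Psme2, Hspe1, Gpm6a, Hydin, Cav1 and Scgb1a1. The part of the liver transcripts in those results was not tested. Dim signals give only a bound. An array's brightest nonspecific-hybridisation control averaged 5.97 ± 0.38 at 40 ppm and 6.08 ± 0.17 at 0 ppm (SD, n = 5 each). In the dimmer group a signal under it was raised to it before a fold was taken, and such a fold is written "at least". Signals of the brighter group were left as they were. No fold is given for a gene whose brighter group does not exceed it. Scgb1a1, Cyp2f2, Scgb3a2, Hp, Krt19, Krt7, Gsto1, Lgals3, Elovl1, Aldh1a1, Mgst1 and Sftpd lie near or above 12, where signals may saturate and differences may be compressed. Sftpc, Ager, Inmt and Cav1 also lie in this range.

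The largest log2 difference was in Prss22, a trypsin-like serine protease of airway epithelium. Its signals were 8.50, 8.45, 8.04, 8.44 and 7.14 at 40 ppm, against 3.80, 4.02, 4.09, 3.94 and 4.07 at 0 ppm. All 5 arrays at 0 ppm lay below the nonspecific control, and the groups were far apart. The log2 difference was 4.13 (SE 0.23, limma adjusted p = 1.1e-14). With clean-air signals raised to the control it was at least 4.11-fold, a lower bound than those of Ifit1 (at least 10.0-fold) and Irf7 (at least 8.87-fold). Psapl1, which encodes a prosaposin-like protein, had 7.51, 7.72, 7.00, 7.82 and 6.59 at 40 ppm, against 4.47, 4.27, 3.70, 3.82 and 3.65 at 0 ppm (difference 3.35, SE 0.23, at least 2.38-fold). Sectm1b, which encodes a secreted and transmembrane protein, had 7.22, 6.98, 6.82, 7.35 and 6.70 at 40 ppm, against 3.83, 4.01, 3.83, 3.91 and 3.73 at 0 ppm (difference 3.15, SE 0.25, at least 1.92-fold). For both genes the lowest array at 40 ppm was above the highest at 0 ppm. Timp1, an inhibitor of matrix metalloproteinases, averaged 10.25 ± 0.37 at 40 ppm and 7.49 ± 0.84 at 0 ppm (SD, n = 5 each), a rise of 6.74-fold, and replicate 1 of the 0 ppm group, at 8.95, was the nearest to the exposed arrays.

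All 15 measured interferon effectors rose (15 of 15, against 7.69% of all genes), with a median difference of 2.37. Oasl1, a member of the oligoadenylate synthetase-like family, had 8.98, 8.33, 8.57, 8.56 and 8.55 at 40 ppm, against 4.88, 4.45, 4.68, 4.84 and 5.13 at 0 ppm. Ifit1, which binds the ends of viral RNA, had 9.86, 9.42, 9.50, 9.97 and 10.36 at 40 ppm, against 5.77, 5.89, 6.74, 6.46 and 7.02 at 0 ppm. The groups did not overlap in either gene, and the 5 exposed arrays lay close together. Oasl1 rose by 3.80 (SE 0.23, at least 5.73-fold) and Ifit1 by 3.45 (SE 0.31, at least 10.0-fold). Mx1, an antiviral GTPase, had 7.81, 7.30, 7.33, 7.18 and 7.59 at 40 ppm, against 4.15, 4.73, 4.34, 4.13 and 4.52 at 0 ppm. Rsad2, the gene of the antiviral enzyme viperin, averaged 9.60 ± 0.31 at 40 ppm and 6.86 ± 0.55 at 0 ppm (SD, n = 5 each), a rise of 6.68-fold. Apol9a, an apolipoprotein L gene, rose by at least 4.62-fold, Oasl2 by 2.65 on the log2 scale, and Zbp1, a nucleic acid sensor, by at least 4.86-fold. The smallest rise in the list was Oas3, at 0.84, where all 10 arrays lay below the nonspecific control. Of these effectors 14 had groups that did not overlap (against 7.65% of all genes), and Oas3 was the exception. All 15 were also called without the 2 clean-air arrays with liver transcripts.

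Transcription factors and RNA sensors of the same response were split, with 6 of 9 higher and 3 (Eif2ak2, Tlr3 and Irf1) not past the threshold. Over all genes 7.69% rose and 5.04% fell. Irf7, the transcription factor that amplifies interferon production, had 9.34, 9.05, 9.56, 9.44 and 9.57 at 40 ppm, against 5.82, 5.81, 6.12, 6.32 and 6.50 at 0 ppm. This was a rise of 3.28 (SE 0.18, limma adjusted p = 5.39e-15, at least 8.87-fold), with no overlap. Dhx58, the RNA sensor LGP2, rose by at least 4.86-fold, Stat2, a subunit of the interferon transcription factor complex, by at least 2.20-fold and Ddx58, the sensor RIG-I, by 0.75 on the log2 scale. Irf1 differed by 0.10 (limma adjusted p over 0.05). Genes usually tied to interferon gamma moved less evenly: 6 of 12 rose and 1, Ido1, fell by 0.37, with all 10 of its arrays below the nonspecific control. The call of Ido1 was lost without any 1 of 7 arrays (40 ppm replicate 1, 2 or 4, 0 ppm replicate 1, 3, 4 or 5). Cxcl10, a chemokine for T cells, had 9.15, 7.88, 8.38, 7.15 and 7.90 at 40 ppm, against 4.28, 4.56, 4.05, 4.27 and 4.47 at 0 ppm (difference 3.77, SE 0.39, at least 4.04-fold). Its relatives Cxcl9 and Cxcl11 differed by 0.45 and 0.25 and did not pass. The GTPases Iigp1 (1.70), Igtp (1.03) and Tgtp1 (1.01) rose, and Gbp2 differed by -0.12.

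Of 21 cytokines and chemokines 9 rose (against 7.69% of all genes) and 0 fell, with a median of 0.63. Among genes brighter than the brightest nonspecific control 3 of these cytokine genes were higher. Ccl12, a monocyte chemokine, had 7.45, 6.63, 7.47, 6.06 and 6.33 at 40 ppm, against 4.09, 3.61, 4.33, 4.48 and 4.05 at 0 ppm. The groups stood apart, with a difference of 2.68 (SE 0.30, at least 1.64-fold). The related chemokines Ccl7 and Ccl2 rose by 1.82 and 1.77, Cxcl1, a neutrophil chemokine, by 1.83 and Lif, a cytokine of the IL-6 family, by 1.08, with all clean-air arrays below the nonspecific control in each. At 40 ppm all 5 arrays of Ccl7 and 2 arrays each of Ccl2 and Lif were also below it. Other, dim probe sets of Lif differed by -0.01 and 0.14. Il6 had 4.52, 5.31, 6.92, 5.36 and 5.42 at 40 ppm, against 3.50, 3.46, 3.59, 3.41 and 3.68 at 0 ppm. It rose by 1.98 (SE 0.35), but 4 of its 5 exposed arrays and all 5 clean-air arrays were below the nonspecific control. Tnf and Il1b, which encode inflammatory cytokines of macrophages, differed by 0.27 and -0.24 and did not pass.

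Genes downstream of IL-6 and of the acute phase rose in 9 of 15 cases and fell in 2, with a median of 0.62. Over all genes 7.69% rose and 5.04% fell. Lrg1, a secreted glycoprotein of the acute phase, had 11.36, 11.42, 11.79, 11.46 and 11.41 at 40 ppm, against 9.29, 9.57, 9.58, 9.06 and 9.51 at 0 ppm. Lcn2, the iron-carrier binding protein lipocalin, had 11.43, 11.51, 11.64, 11.03 and 11.19 at 40 ppm, against 9.60, 9.92, 9.98, 9.76 and 10.00 at 0 ppm. Neither gene overlapped, and the rises were 4.24-fold for Lrg1 and 2.84-fold for Lcn2. Serpina3n, a protease inhibitor, rose by 3.27-fold, and Socs3, the feedback inhibitor of IL-6 signalling, by 3.01-fold. Saa3, a serum amyloid made in the lung, had 8.46, 8.52, 9.51, 8.06 and 7.59 at 40 ppm, against 8.79, 4.90, 5.73, 5.32 and 5.65 at 0 ppm. The groups overlapped through replicate 1 of the 0 ppm group. The 2 members that fell were Hp, which encodes haptoglobin, by 0.41, and Il6ra, the IL-6 receptor chain, by 0.54.

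DNA replication genes rose in 20 of 27 cases (against 7.69% of all genes) with a median of 0.78, and none fell. All 27 differences were positive. Uhrf1, which recruits DNA methylation to replicating DNA, had 7.27, 7.15, 7.43, 7.31 and 6.75 at 40 ppm, against 5.75, 5.02, 5.01, 5.10 and 4.61 at 0 ppm. Tk1, thymidine kinase, had 6.79, 6.63, 7.04, 6.85 and 6.56 at 40 ppm, against 5.57, 4.54, 4.22, 4.56 and 4.72 at 0 ppm. The exposed arrays were above all clean-air arrays in both, and replicate 1 was the highest at 0 ppm in each. Uhrf1 rose by at least 2.15-fold and Tk1 by at least 1.62-fold. Rrm2, a ribonucleotide reductase subunit, rose by 1.41 on the log2 scale and the helicase subunit Mcm5 by 1.37. Mitosis genes rose in 15 of 28 cases (against 7.69% of all genes) with a median of 0.46. Cdk1, the kinase that starts mitosis, had 7.25, 6.98, 7.38, 7.10 and 7.14 at 40 ppm, against 5.97, 4.97, 5.20, 5.29 and 5.03 at 0 ppm (at least 2.13-fold). Pbk, a mitotic kinase, rose by 1.72, and Birc5, the survivin gene, by 1.38. Spindle genes such as Kif11, Cenpf and Kif23 differed by 0.02, 0.05 and -0.06 and did not pass, with all 10 arrays below the nonspecific control. Mki67, the gene of the proliferation antigen Ki-67, differed by 0.42 and did not pass. Many members are dim: among genes brighter than the brightest nonspecific control 13 replication genes and 4 mitosis genes were higher, and without the 2 clean-air arrays with liver transcripts the counts were 18 and 10.

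**Figure D2:**
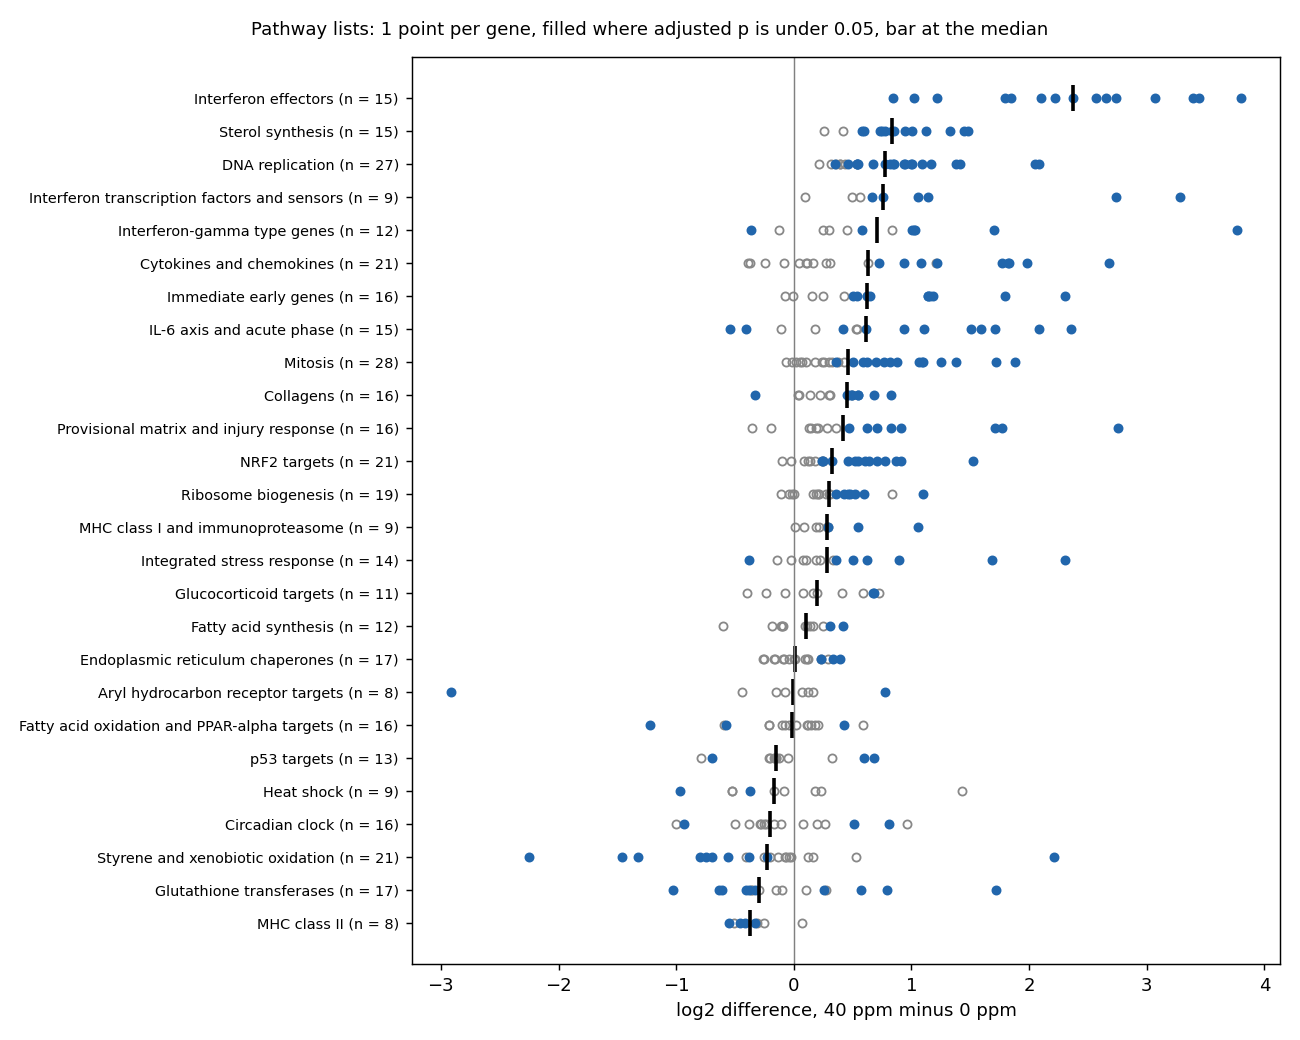
Log2 difference between 40 ppm and 0 ppm (x axis) of each measured member of the 26 pathway lists, with 1 point per gene, filled where limma called it and open where it did not, and a black bar at each list's median. Interferon effectors lie furthest to the right (median 2.37, 15 of 15 called), and the lowest 3 medians are those of xenobiotic oxidation, glutathione transferase and MHC class II genes (-0.22, -0.30 and -0.37).

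Of 15 sterol synthesis enzymes 13 rose (against 7.69% of all genes) and 0 fell, with a median of 0.83. Cyp51, the lanosterol demethylase, had 8.94, 9.04, 9.13, 8.63 and 8.71 at 40 ppm, against 7.46, 7.85, 7.55, 7.41 and 6.75 at 0 ppm, a rise of 2.79-fold. Sqle, squalene epoxidase, had 9.26, 9.34, 9.23, 9.24 and 9.11 at 40 ppm, against 7.98, 8.40, 8.28, 8.07 and 7.83 at 0 ppm, a rise of 2.18-fold. In both genes every exposed array was above every clean-air array. Lss, lanosterol synthase, rose by at least 2.22-fold and Hsd17b7, another enzyme of the pathway, by at least 2.42-fold. A second, dim probe set of Hsd17b7 differed by 0.13. The exceptions were Sc5d (0.41) and Insig1 (0.25), which did not pass. Fatty acid synthesis genes moved less, with 2 of 12 higher: Elovl1, a fatty acid elongase, by 0.41, and Fasn, fatty acid synthase, by 0.31, a call that was lost under 12 alternatives. Of 16 fatty acid oxidation genes 1 rose, Acadl (0.43), and 2 fell (against 5.04% of all genes), Acadm by 0.58 and Fabp1 by 1.23. Acadl lost its call without any 1 of 40 ppm replicates 2 and 5 and 0 ppm replicates 1 and 4. Acadl and Acadm encode acyl-CoA dehydrogenases and Fabp1 a fatty acid binding protein abundant in liver. Without the 2 clean-air arrays with liver transcripts Fabp1 was not called, and the part of those transcripts in its difference was not tested. Ribosome biogenesis genes rose in 7 of 19 cases, led by Rrp12 (1.09), and in 4 without those arrays.

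Enzymes of styrene and xenobiotic oxidation fell in 9 of 21 cases (against 5.04% of all genes) and rose in 1 (against 7.69%), with a median of -0.22. Cyp2f2, the main styrene-oxidising cytochrome of club cells, had 12.44, 12.65, 12.41, 12.68 and 12.55 at 40 ppm, against 13.19, 13.31, 13.25, 13.23 and 13.21 at 0 ppm. The groups did not overlap, and the signal fell by 0.69 (SE 0.08, limma adjusted p = 1.57e-07), in a range where the array may saturate. Cyp2e1, the other cytochrome known for styrene oxidation, varied widely within both groups, with 6.76, 9.35, 6.49, 9.31 and 6.04 at 40 ppm, against 7.41, 7.30, 9.78, 8.01 and 6.12 at 0 ppm. It differed by -0.13 with an SE of 0.80. Pon1, paraoxonase, an esterase also abundant in liver, lay between 7.94 and 9.13 with a median of 8.59 at 40 ppm, against 10.81, 11.07, 10.80, 10.75 and 10.76 at 0 ppm. Its clean-air arrays with liver transcripts were level with the other 3, and the signal was 4.77-fold lower at 40 ppm. Aox3, an aldehyde oxidase, had 8.62, 8.57, 8.23, 8.24 and 8.79 at 40 ppm, against 9.76, 10.02, 9.83, 10.01 and 10.13 at 0 ppm, and was 2.75-fold lower. Carboxylesterases Ces1f and Ces1d fell by 1.33 and 0.80, the flavin monooxygenase Fmo1 by 0.74, and Aldh1a1, an aldehyde dehydrogenase, by 0.38. Inmt, an amine methyltransferase, fell by 0.22, a call lost under 10 alternatives. Ephx1, the epoxide hydrolase that opens styrene oxide, had 10.07, 10.14, 10.00, 10.16 and 10.01 at 40 ppm, against 10.81, 10.73, 10.60, 10.53 and 10.51 at 0 ppm. It fell by 0.56 (SE 0.10) without overlap. The member that rose was Cyp2a5, with 9.72, 11.05, 10.17, 11.01 and 9.57 at 40 ppm, against 7.06, 9.68, 9.12, 8.03 and 6.56 at 0 ppm. These groups overlapped, and a close paralog, Cyp2a4, may hybridise to the same probes. Its call was lost without any 1 of 4 arrays (40 ppm replicate 2 or 4, 0 ppm replicate 1 or 5), and it is named here after its value was seen.

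Glutathione transferases moved both ways, with 4 of 17 higher and 6 lower (over all genes 7.69% were higher and 5.04% lower). Gsto1, an omega-class enzyme, had 12.00, 12.30, 12.04, 12.23 and 12.04 at 40 ppm, against 11.14, 11.62, 11.55, 11.30 and 11.04 at 0 ppm, and rose by 0.79. Gstm1, a mu-class enzyme, had 10.97, 11.07, 10.67, 10.43 and 10.47 at 40 ppm, against 11.49, 11.54, 11.32, 11.30 and 11.18 at 0 ppm, and fell by 0.64. Gstk1, the mitochondrial and peroxisomal kappa enzyme, was 2.04-fold lower. None of these groups overlapped. Gsta2, an alpha-class enzyme, rose by 1.72 on its brightest probe set, while another probe set fell by 0.76, and the gene was not called on the mean of its probe sets. The remaining changed members were Mgst3 (0.57) and Gstp1 (0.26), which rose, and Gstm6, Gstm2, Gstt1 and Mgst1, which fell by 0.61, 0.41, 0.38 and 0.33. Mu- and alpha-class genes are close in sequence, so their probe sets may share signal.

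NRF2 targets rose in 13 of 21 cases (against 7.69% of all genes) and fell in 0, with a median of 0.32. Akr1b8, an aldo-keto reductase, had 9.75, 9.88, 9.59, 9.65 and 9.25 at 40 ppm, against 8.16, 8.19, 8.45, 7.89 and 7.84 at 0 ppm, a rise of 2.87-fold without overlap. Hmox1, heme oxygenase, had 8.91, 8.43, 8.40, 8.21 and 8.15 at 40 ppm, against 7.67, 7.44, 7.54, 7.36 and 7.56 at 0 ppm, a rise of 1.88-fold. Gpx2, a glutathione peroxidase, rose by 1.82-fold, Gsr, glutathione reductase, by 0.64 and Txnrd1, thioredoxin reductase, by 0.60. Slc7a11, the cystine importer, and Prdx1, a peroxiredoxin, differed by 0.12 and -0.03 and did not pass. Without the 2 clean-air arrays with liver transcripts 9 of the 21 were called. The aryl hydrocarbon receptor list gave opposite calls in its 8 members. Cyp1a1, its best known target, had 5.01, 4.51, 4.55, 4.55 and 5.00 at 40 ppm, against 7.95, 7.50, 7.42, 7.93 and 7.38 at 0 ppm. All exposed arrays were below the nonspecific control and far below every clean-air array, so the gene was at least 3.17-fold lower at 40 ppm (difference -2.91, SE 0.36, limma adjusted p = 4.84e-07). Nqo1, a quinone reductase that NRF2 also controls, rose by 0.77. The other 6 members, among them Cyp1b1 (0.17) and Tiparp (-0.08), did not pass.

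Immediate early genes, transcription factors that cells induce within minutes of a signal, rose in 10 of 16 cases, with a median of 0.62. For this and the stress lists below, 7.69% of all genes rose and 5.04% fell. Egr1 had 9.51, 9.76, 10.31, 9.77 and 9.39 at 40 ppm, against 7.74, 7.69, 7.95, 8.09 and 8.30 at 0 ppm, a rise of 3.46-fold. Atf3 had 7.40, 7.94, 9.23, 8.50 and 7.31 at 40 ppm, against 6.00, 5.96, 5.66, 5.52 and 5.72 at 0 ppm, a rise of at least 3.98-fold. Both stood apart from clean air on every array, and replicate 3 was the highest exposed array in each. Fos rose by 1.14, Junb by 1.16 and Myc by 1.14, while Jun and Dusp1 differed by 0.25 and -0.07 and did not pass. Genes of the integrated stress response, which cells start under amino acid shortage or misfolded protein, rose in 6 of 14 cases and fell in 1, Nupr1, whose call was lost without replicate 4 of the 40 ppm group and without the 2 clean-air arrays with liver transcripts. Beside Atf3 these included Psat1, an enzyme of serine synthesis (at least 2.71-fold), Slc7a5, an amino acid importer (at least 1.69-fold), and Atf4 (0.50), while Ddit3 and Asns differed by -0.14 and 0.22 and did not pass. The endoplasmic reticulum chaperone list had 3 of 17 higher (Dnajb11, Hyou1 and Sec61b, by 0.39, 0.34 and 0.23), or 1 without replicate 3 of the 40 ppm group, and Hspa5, its central chaperone, differed by -0.04. Of 9 heat shock genes 2 fell, Hsph1 by 0.97 and Hspe1 by 0.38 (lost under 9 alternatives). Hspa1b, the inducible chaperone, had 11.69, 11.82, 11.42, 11.59 and 11.11 at 40 ppm, against 11.01, 11.56, 10.81, 8.88 and 8.21 at 0 ppm, and its difference of 1.43 did not pass. Of 13 p53 targets 2 rose, Cdkn1a (0.68, lost under 13 alternatives) and Phlda3 (0.60), and 1 fell, Sesn1, by 0.69.

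**Figure D3:**
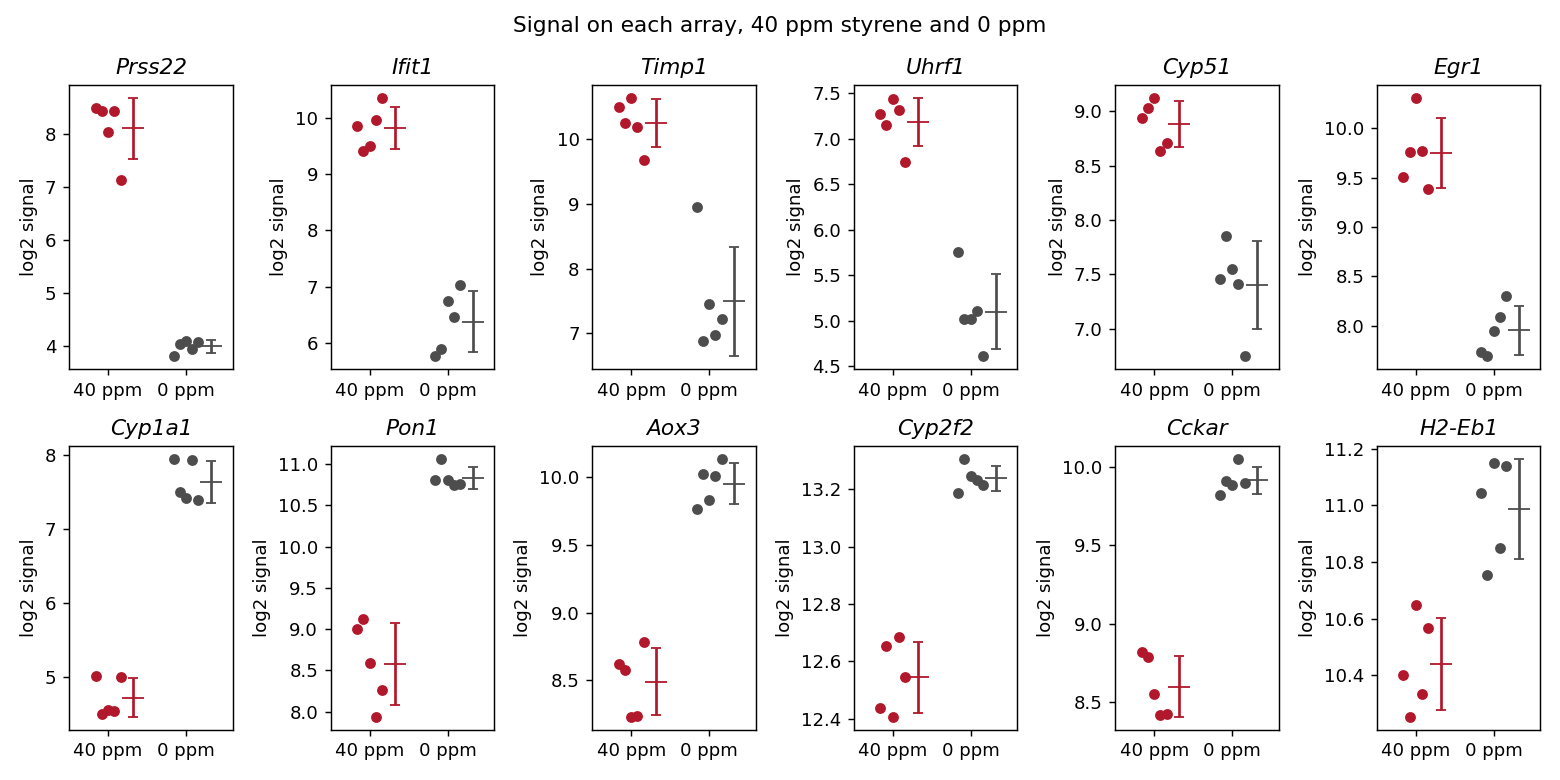
Log2 signal (y axis, a separate scale in each panel) on each of the 5 arrays at 40 ppm (red, left) and the 5 at 0 ppm (grey, right) for 12 genes, with the mean and SD beside the points. In these 12 genes the groups do not overlap, with the 6 upper genes higher and the 6 lower genes lower at 40 ppm.

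Glucocorticoid and circadian genes gave few calls, beside the 7.69% of all genes that rose and the 5.04% that fell. Of 11 glucocorticoid targets 2 rose, Cdkn1a and the metallothionein gene Mt1 (0.67), and neither was called without the 2 clean-air arrays with liver transcripts. Of 16 clock genes 2 rose, Bhlhe40 (0.81) and Cry1 (0.51), and 1 fell, Per3, by 0.93. Cry1 and Per3 lost their call under 10 and 11 alternatives. Dbp, a clock output gene, ranged between 4.12 and 6.04 at 40 ppm and between 4.70 and 6.96 at 0 ppm, and did not pass.

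Of 16 collagen and collagen-processing genes 8 rose (against 7.69% of all genes), with a median of 0.46, and 1, the collagen chaperone Serpinh1, fell by 0.33. Serpinh1 was not called on the mean of its probe sets, the other of which differed by 0.05, and its call was also lost without any 1 of 6 arrays (40 ppm replicate 1, 2, 4 or 5, 0 ppm replicate 1 or 3). Col1a1, a chain of type I collagen, had 8.43, 8.25, 8.39, 8.25 and 8.12 at 40 ppm, against 7.64, 6.87, 7.66, 7.50 and 7.65 at 0 ppm, a rise of 0.82. Col4a1, a chain of basement membrane collagen, rose by 0.55. Of 16 provisional matrix and injury genes 8 rose and 0 fell. On the log2 scale Timp1 led, followed by Tnc, the matrix protein tenascin C (1.77), and Hbegf, a ligand of the EGF receptor (1.71). At 40 ppm 2 arrays of Tnc were below the nonspecific control, and another, dim probe set of Tnc differed by 0.40. Lgals3, galectin 3, rose by 0.62, while Fn1 and Postn, which encode the matrix proteins fibronectin and periostin, differed by 0.36 and -0.35 and did not pass. Among 14 squamous repair and simple keratin genes 7 rose, with a median of 0.52. Sprr1a, a precursor of the squamous cell envelope, had 7.21, 7.49, 8.63, 6.82 and 6.96 at 40 ppm, against 5.59, 5.64, 4.72, 5.07 and 5.19 at 0 ppm, at least 2.54-fold higher. Krt19, a simple keratin, had 12.03, 12.16, 12.03, 12.23 and 11.94 at 40 ppm, against 11.08, 11.11, 11.05, 11.15 and 11.04 at 0 ppm. The groups were apart in both genes, and the rise in Krt19 was 1.99-fold. Krt8 and Krt7 rose by 0.92 and 0.60 and Cldn4, a tight junction protein, by 1.54. The basal cell genes Krt5, Krt14 and Trp63 differed by 0.40, -0.05 and 0.07 and did not pass.

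Markers of club cells fell in 8 of 13 cases (against 5.04% of all genes), with a median of -0.38. These 8 include Kdr, a VEGF receptor gene that is also counted among the endothelial markers. They also include Cyp2f2 and Aldh1a1, counted above with xenobiotic oxidation, and Hp, counted above with the acute phase. The lists are therefore not separate sets of genes. The 1 that rose, against 7.69% of all genes, was Cyp2a5, whose call was lost without any 1 of 40 ppm replicates 2 and 4 and 0 ppm replicates 1 and 5. In whole lung, fewer cells of a type and less RNA per cell cannot be told apart. Cckar, a cholecystokinin receptor, had 8.82, 8.79, 8.55, 8.41 and 8.42 at 40 ppm, against 9.82, 9.91, 9.89, 10.05 and 9.90 at 0 ppm, and was 2.49-fold lower. Chad, which encodes the matrix protein chondroadherin, had 6.86, 8.13, 7.50, 7.25 and 6.94 at 40 ppm, against 8.87, 9.56, 9.02, 8.89 and 8.50 at 0 ppm, and was 3.11-fold lower. Neither gene overlapped. Scgb3a2, a secretoglobin, fell by 0.57. Scgb1a1, the secretoglobin that defines the cell type, had 13.76, 13.84, 13.72, 13.73 and 13.71 at 40 ppm, against 13.84, 13.96, 13.88, 13.91 and 13.88 at 0 ppm. It fell by 0.15, a call that was lost under 15 alternatives, and its signal is in the range that may saturate. The count of club cell markers that fell was 6 without the 2 clean-air arrays with liver transcripts and 4 at a fold of at least 1.5. Of 12 goblet cell genes 2 rose: Slc26a4, an anion exchanger, with 6.26, 6.77, 8.25, 6.28 and 6.70 at 40 ppm, against 4.81, 4.36, 4.97, 4.72 and 5.08 at 0 ppm, and Agr2, a mucin-folding enzyme, whose call was lost under 14 alternatives. The mucin genes Muc5ac and Muc5b differed by -0.08 and -0.48 and did not pass.

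Other structural cells gave smaller differences. Their counts stand beside the 7.69% of all genes that rose and the 5.04% that fell. Of 12 fibroblast markers 5 fell, among them the matrix genes Dpt by 0.75 and Dcn by 0.84, and the PDGF receptor Pdgfra by 0.39. The count was 3 without any 1 of 4 arrays (0 ppm replicate 1 or 5, 40 ppm replicate 3 or 4), and Dcn was not called without the 2 clean-air arrays with liver transcripts. Of 13 endothelial markers 4 fell and 1 rose. Kdr and Tek, which encode receptors for VEGF and for angiopoietins, fell by 0.59 and 0.53, Plvap, a protein of endothelial pores, by 0.47, Gpihbp1, an anchor of lipoprotein lipase, by 0.27, and Sox17, a transcription factor, rose by 0.61. The lower count was 2 without replicate 4 of the 40 ppm group and 2 without the clean-air arrays with liver transcripts. It was 1 at a fold of at least 1.5, 7 with array weights and 7 without the 120 ppm group. The general endothelial gene Cdh5, VE-cadherin, averaged 10.00 ± 0.06 at 40 ppm and 10.17 ± 0.07 at 0 ppm (SD, n = 5 each) and did not pass. Alveolar type 2 markers gave 1 call in each direction, Sftpd, a surfactant collectin (0.32), and Napsa, a surfactant-processing protease (-0.40), and Sftpc and Ager, the type 1 cell receptor, differed by 0.03 and 0.05. Alveolar type 1 markers gave 2 higher, Igfbp2 (0.44) and Aqp5 (0.43), and 1 lower, Cav1 (-0.29). Igfbp2 and Cav1 lost their call under 7 and 13 alternatives, among them leaving out any 1 of several arrays, and Napsa under 8. Of 11 ciliated cell genes 1 fell (9.09%, against 5.04% of all genes), Hydin by 0.44, with all 10 arrays below the nonspecific control. Of 7 mesothelial genes 1 rose, Krt19, and 1 fell, Gpm6a by 0.57. Hydin and Gpm6a lost their call under 10 and 8 alternatives.

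**Figure D4:**
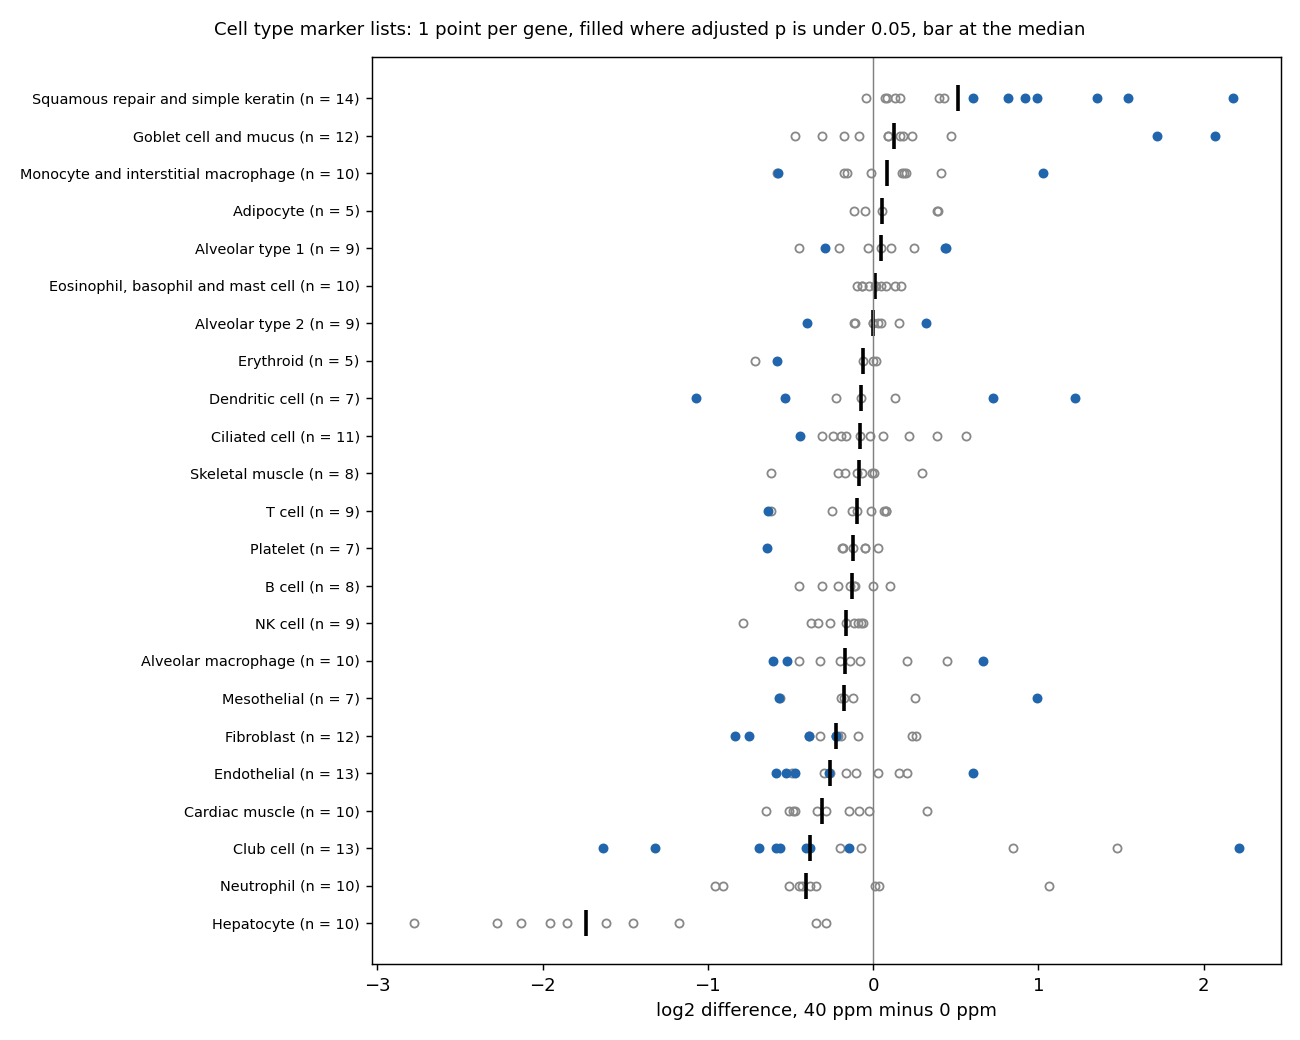
Log2 difference between 40 ppm and 0 ppm (x axis) of each measured member of the 23 cell type marker lists, with 1 point per gene, filled where limma called it and open where it did not, and a black bar at each list's median. Keratin and squamous repair genes have the highest median (0.52). Hepatocyte genes have the lowest (-1.73) with 0 of 10 called.

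Of 8 MHC class II genes, whose products present antigen to helper T cells, 4 fell (against 5.04% of all genes), with a median of -0.37. H2-Eb1 had 10.40, 10.25, 10.65, 10.33 and 10.57 at 40 ppm, against 11.05, 10.76, 11.15, 10.85 and 11.14 at 0 ppm, and fell by 0.55. The other 3 were H2-DMa, H2-Aa and H2-Ab1, lower by 0.46, 0.42 and 0.33. Without the 2 clean-air arrays with liver transcripts 1 class II gene was called, and without replicate 2 of the 40 ppm group 2 were. Of 9 MHC class I and immunoproteasome genes 3 rose (against 7.69% of all genes): Nlrc5, the class I transactivator (1.06), Psmb8 (0.55) and Psme2 (0.29). That count was 5 without replicate 1 of the 0 ppm group, without the 120 ppm group or with each gene's probe sets averaged. It was 7 with array weights, 2 without the 2 clean-air arrays with liver transcripts and 1 at a fold of at least 1.5. Psmb9 was not called on its brightest probe set. Another of its probe sets averaged 8.42 at 40 ppm and 7.24 at 0 ppm, a difference of 1.18. That difference had a limma adjusted p of 1.23e-06 among all probe sets. A dim one differed by 0.29. For the cell lists that follow, 7.69% of all genes rose and 5.04% fell. Of 10 alveolar macrophage markers 2 fell, Pparg, their defining nuclear receptor (-0.61), and Siglecf, a surface lectin (-0.52). At 40 ppm 4 arrays of Pparg were below the nonspecific control. The call of Siglecf was lost without the 2 clean-air arrays with liver transcripts. The 1 that rose was the scavenger receptor Marco (0.67). Of 10 monocyte and interstitial macrophage genes Cd14, the endotoxin co-receptor, rose by 1.03 and Csf1r, the macrophage growth factor receptor, fell by 0.57. Of 7 dendritic cell genes the chemokines Ccl17 and Ccl22 rose by 1.22 and 0.72, and Cd209a and Flt3 fell by 1.07 and 0.54. The call of Ccl22 was lost without 40 ppm replicate 1 or 3 or 0 ppm replicate 1. At 40 ppm all 5 arrays of Flt3 and 3 arrays of Cd209a were below the nonspecific control. The 10 neutrophil genes gave 0 calls: S100a8, their most abundant cytosolic protein, had 8.68, 9.42, 10.01, 8.57 and 8.81 at 40 ppm, against 10.24, 8.53, 9.69, 10.44 and 11.12 at 0 ppm. Of 9 T cell genes 1 fell (Cd3g by 0.64), and the 8 B cell, 9 natural killer cell and 10 eosinophil, basophil and mast cell genes gave 0 calls. Of the blood lists, 1 of 5 erythroid genes (Alas2) and 1 of 7 platelet genes (Ppbp) fell. Cd3g and Alas2 each lost their call under 9 alternatives, and Ppbp without 40 ppm replicate 2 or 0 ppm replicate 1 or 4. The 10 cardiac, 8 skeletal muscle and 5 adipocyte genes gave 0 calls on their brightest probe sets. Another probe set of the cardiac gene Myh7 averaged 5.75 at 40 ppm and 6.74 at 0 ppm, a difference of -0.99.

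Among the genes with the largest falls at 40 ppm, several lie outside these groups. Mycl, a MYC family transcription factor, had 5.24, 5.49, 5.12, 5.22 and 4.76 at 40 ppm, against 6.81, 7.28, 7.23, 7.08 and 6.90 at 0 ppm, at least 2.09-fold lower. Igfbp3, a binding protein of insulin-like growth factors, had 7.29, 7.26, 7.23, 6.70 and 7.11 at 40 ppm, against 8.98, 8.78, 8.92, 8.30 and 8.35 at 0 ppm, 2.92-fold lower. Slc4a5, a bicarbonate transporter, was at least 3.16-fold lower and Traf1, an adaptor of TNF receptors, at least 3.00-fold. In each of these 4 genes the groups stood apart. Npr3, the clearance receptor for natriuretic peptides, had 5.87, 6.12, 6.03, 6.66 and 6.54 at 40 ppm, against 6.74, 8.17, 8.14, 8.54 and 8.62 at 0 ppm, at least 3.29-fold lower, with replicate 1 of the 0 ppm group near the exposed arrays. Klhl24, a kelch-like protein, was 2.81-fold lower, Ankrd63, an ankyrin repeat gene, at least 2.37-fold and Acsm1, a medium-chain acyl-CoA synthetase, at least 1.63-fold. Rbp7, a retinol-binding protein, had 6.77, 3.93, 6.68, 5.63 and 4.11 at 40 ppm, against 7.83, 7.35, 6.35, 7.70 and 7.31 at 0 ppm. Its groups overlapped, and it was not called without replicate 2 of the 40 ppm group. Asgr1, the asialoglycoprotein receptor subunit known from hepatocytes, and Cyp4f15, a cytochrome, lay close to the array's background even in clean air, and their falls of 1.97 and 1.49 amount to at least 1.06-fold and 1.01-fold.

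Against 20 ppm, the next lower dose, limma called 0 of 17097 genes at 40 ppm (0%). The smallest adjusted p was 0.145, and 1995 genes had an unadjusted p under 0.05. Array weights gave 241 calls, the fit of only these groups 4, and the fit without the 120 ppm group 2, as did leaving out replicate 3 of the 40 ppm group. The 3 genes with the smallest p were Sncg, Cyp7b1 and Acaa1b. Sncg, which encodes a synuclein, averaged 5.92 ± 0.16 at 40 ppm and 4.98 ± 0.10 at 20 ppm. Cyp7b1, an oxysterol hydroxylase, averaged 5.54 ± 0.61 at 40 ppm and 6.66 ± 0.11 at 20 ppm, and Acaa1b, a peroxisomal thiolase, averaged 7.13 ± 0.64 at 40 ppm and 5.94 ± 0.30 at 20 ppm (SD, n = 5 each). Prss22 differed by 0.87 (SE 0.23) and Ifit1 by -0.30 (SE 0.31), neither past the threshold, which does not show that the doses act alike.

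Against 10 ppm, 726 genes (4.25%) were higher and 280 (1.64%) lower at 40 ppm, together 1006 (5.88%). The higher share was 72% of the calls, and it was 53.4% with arrays centred on their median and 56.7% with cyclic loess. The counts ranged from 483 without replicate 2 of the 10 ppm group to 1166 without its replicate 3, and were 632 without its replicate 1 and 608 without replicate 4 of the 40 ppm group. The largest log2 difference was in Clca1, a secreted protease of goblet cells, which had 3.97, 4.16, 5.54, 3.96 and 4.34 at 40 ppm, against 10.17, 10.85, 11.22, 9.80 and 11.69 at 10 ppm. At 20 ppm its arrays were split, with 4.91, 9.59, 4.43, 8.75 and 3.77, and at 0 ppm they lay between 3.92 and 5.78. The difference from 10 ppm was -6.35 (SE 0.83, limma adjusted p = 1.36e-05), while that from clean air was -0.31. All 5 arrays at 40 ppm were below the nonspecific control, so Clca1 was at least 27.5-fold lower than at 10 ppm, also the largest such bound among the genes lower at 40 ppm. Ccl24, an eosinophil chemokine, averaged 4.05 ± 0.50 at 40 ppm and 7.18 ± 0.59 at 10 ppm, and Ccl11, another, 4.48 ± 0.45 at 40 ppm and 6.28 ± 0.33 at 10 ppm (SD, n = 5 each). With dim arrays at 40 ppm raised to the control these were at least 2.32-fold and at least 1.24-fold lower at 40 ppm. Slc26a4 and Agr2 were lower than at 10 ppm by 1.92 and 2.11, although both were higher than in clean air. Of the interferon effectors 5 of 15 were lower than at 10 ppm (against 1.64% of all genes) and 0 higher. Mx1 averaged 7.44 ± 0.26 at 40 ppm and 8.56 ± 0.43 at 10 ppm, and Ifit1, which did not pass, 9.82 ± 0.38 at 40 ppm and 10.38 ± 0.46 at 10 ppm (SD, n = 5 each).

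In the other direction Prss22 was higher at 40 ppm than at 10 ppm by 2.86 (SE 0.23, limma adjusted p = 1.18e-09). It had 8.50, 8.45, 8.04, 8.44 and 7.14 at 40 ppm, against 4.74, 5.64, 5.39, 5.73 and 4.77 at 10 ppm, at least 4.23-fold higher. Psapl1 was higher by 1.77 (at least 2.45-fold), Calcb, a calcitonin-related peptide gene, by 1.89 (at least 1.04-fold) and Tent5b, a poly-A polymerase of the TENT family, by 1.52. Acaa1b was higher by 2.01, with means of 7.73, 5.12 and 7.13 at 0, 10 and 40 ppm, so it lay lowest at 10 ppm and did not differ from clean air past the threshold. Immediate early genes were higher than at 10 ppm in 9 of 16 cases (against 4.25% of all genes) and lower in 0. Chaperones moved the other way. Of 17 endoplasmic reticulum chaperones 13 were lower than at 10 ppm (against 1.64% of all genes), with a median of -0.54, and of 9 heat shock genes 5 were lower. Hsph1, a cytosolic chaperone, averaged 9.22 ± 0.28 at 40 ppm and 10.98 ± 0.51 at 10 ppm (SD, n = 5 each), and Ahsa2, a co-chaperone of Hsp90, was lower by 1.92. Cirbp, the cold-inducible RNA-binding protein, had 8.47, 8.48, 7.70, 8.88 and 8.24 at 40 ppm, against 5.96, 6.39, 6.98, 6.80 and 7.18 at 10 ppm, and these groups did not overlap. Against clean air Cirbp rose by 0.96, with overlapping groups, and was not called without the 2 clean-air arrays with liver transcripts. The 40 ppm arrays are shared by all 3 comparisons.

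**Figure D5:**
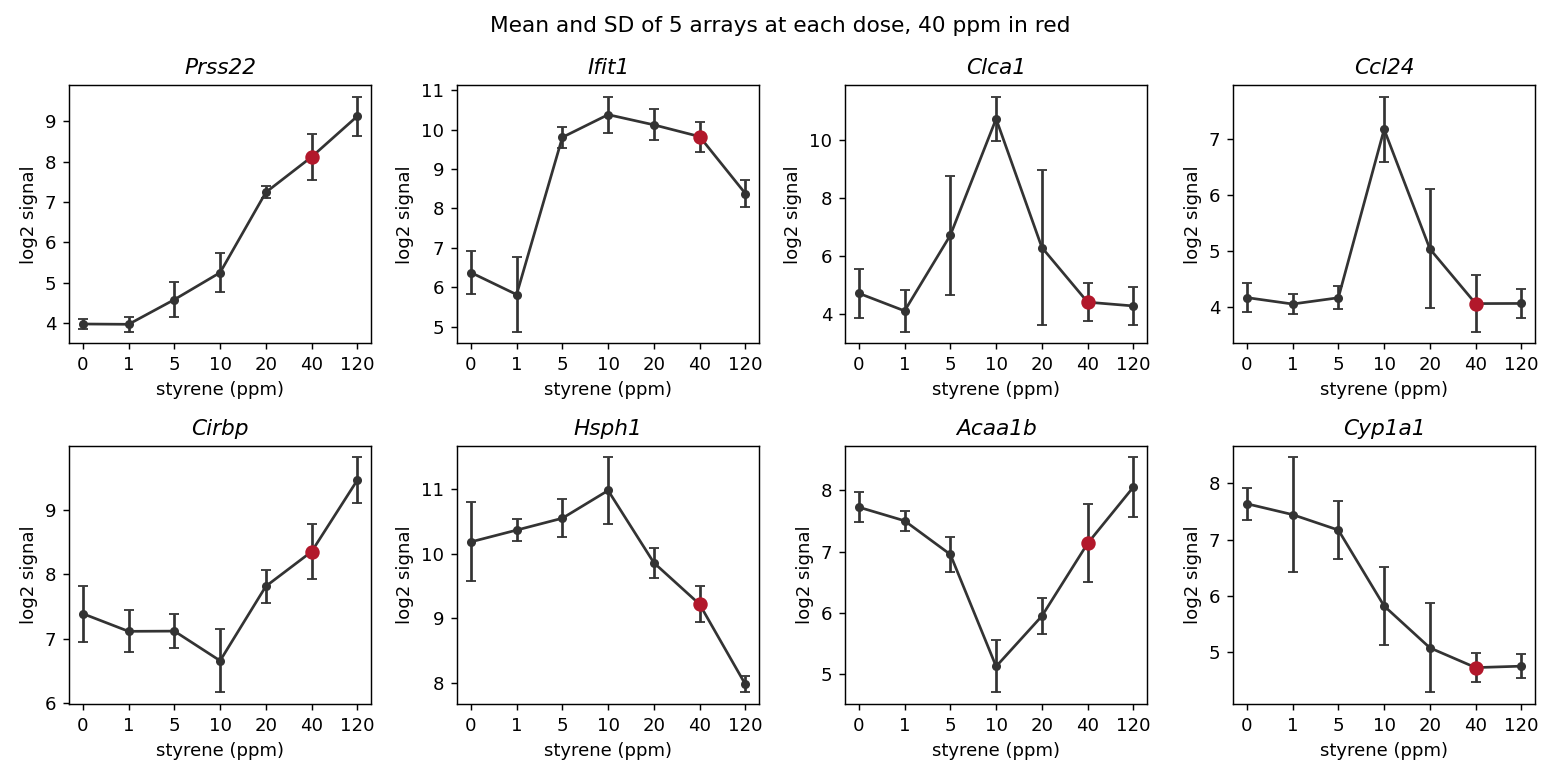
Mean log2 signal with SD (y axis, a separate scale in each panel, n = 5 arrays per dose) of 8 genes at the 7 styrene doses in ppm (x axis, spaced evenly), with 40 ppm in red. The mean of Prss22 climbs with each dose above 1 ppm, the means of Clca1 and Ccl24 peak at 10 ppm and lie near clean air at 40 ppm, and that of Ifit1 is above clean air from 5 ppm on.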

How the data were processed

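Per the labels' protocols, lung RNA was extracted with Trizol and RNeasy columns, biotin-labelled and hybridised. The deposited table holds the authors' log2 signals of 45141 probe sets, made with RMA and Partek per the submitters' processing notes. Software versions, scan dates and plates are not given here, so no batch could be tested. Of the probe sets 104 are controls, 28898 are listed with 1 gene and 551 with several, which were left out.

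From these log2 values, limma 3.58.1 in R 4.3.3 (lmFit, eBayes) fitted 1 mean per dose to 35 arrays (28 residual degrees of freedom). Tests were two-sided with Benjamini-Hochberg adjustment and a threshold of 0.05, and SE is limma's. Promoters were searched in Python 3.11.15 with pandas 2.3.3, and matplotlib 3.10.9 made the plots. Genes, the 49 lists and the naming rule were chosen with earlier results of these data known. The rule named the 15 largest changes each way, up to 4 called members per list by smallest p, Cyp2f2, Cyp2e1, Scgb1a1, Ephx1 and Hmox1, and the 6 largest changes each way against 10 ppm, leaving out provisional names. Further list members are named by value as examples chosen after their values were seen. Of 694 symbols on the lists 619 were measured, and the others were left out. On simulated data for 40 ppm against 0 ppm over 17097 genes, 50 genes at each size, 22% at 1.25-fold, 70% at 1.5-fold, 90% at 2-fold and 100% at 4-fold were called, with 5 of 16897 unchanged genes. The number of arrays limits precision. Alternatives were other probe set rules, filters, normalisations, variance models, a replicate block and leaving out arrays.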

Additional observations from a re-analysis of the deposited data

Results flagged for a closer look

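Among the 312 groups of 5 arrays checked, 20 (6.41%) had 1 array far from the other 4 by Dixon's ratio, and chance gives about 1 in 20. At 40 ppm these were Dhx58 (7.96 in replicate 2, against 8.42 to 8.54 in the others), Stat2 (7.84 in replicate 1, against 7.56 to 7.64), Tgtp1 (9.84 in replicate 4, against 10.73 to 10.97), Lrg1 (11.79 in replicate 3, against 11.36 to 11.46), Elovl1 (12.3 in replicate 3, against 12.01 to 12.07), Col6a1 (10.19 in replicate 2, against 10.43 to 10.52), Slc26a4 (8.25 in replicate 3, against 6.26 to 6.77), Ppbp (7.53 in replicate 2, against 7.99 to 8.03) and Clca1 (5.54 in replicate 3, against 3.96 to 4.34).

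At 0 ppm they were Timp1 (8.95 in replicate 1, against 6.88 to 7.45), Pon1 (11.07 in replicate 2, against 10.75 to 10.81), Npr3 (6.74 in replicate 1, against 8.14 to 8.62), Ccl7 (3.52 in replicate 3, against 3.35 to 3.37), Dnajb11 (9.14 in replicate 3, against 8.84 to 8.92), Mt1 (10.96 in replicate 4, against 11.11 to 11.17), Col1a1 (6.87 in replicate 2, against 7.5 to 7.66), Csf1r (8.57 in replicate 1, against 8.14 to 8.25), Ccl17 (6.69 in replicate 1, against 7.5 to 7.72), Cd3g (5.59 in replicate 2, against 6.22 to 6.4) and Cyp7b1 (5.72 in replicate 3, against 5.02 to 5.14). Replicate 3 at 40 ppm and replicate 1 at 0 ppm each stood apart in 4 of these genes.

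Probe sets that the annotation used here lists with no gene also differed. Of 15588 such probe sets, tested apart in limma, 861 (5.52%) changed at 40 ppm against 0 ppm, with 365 higher and 496 lower.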

How the results depend on the processing

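Of the 150 named genes called at 40 ppm against 0 ppm, 96 kept their call under every alternative run and 0 changed sign. At a fold change of at least 1.5, 838 genes changed against 0 ppm (510 higher, 328 lower) and 370 against 10 ppm (198 higher, 172 lower). Array weights gave 3883 (2192 higher, 1691 lower) against 0 ppm, 241 (160 higher, 81 lower) against 20 ppm and 2708 (1865 higher, 843 lower) against 10 ppm. Fitting only the groups compared gave 2754 (1583 higher, 1171 lower) against 0 ppm, 4 (2 higher, 2 lower) against 20 ppm and 1669 (1095 higher, 574 lower) against 10 ppm. Without the 120 ppm group 3095 genes changed against 0 ppm (1727 higher, 1368 lower), 2 against 20 ppm (1 each way) and 1753 against 10 ppm (1233 higher, 520 lower). With all probe sets 457 were lower against 10 ppm, and with arrays centred on their median 370 were higher. Without 0 ppm replicates 3 and 4, 1233 changed against 0 ppm (782 higher, 451 lower). Leaving out 1 array at a time gave 1622 to 2117 changed genes against 0 ppm (1013 to 1385 higher, 585 to 813 lower), 0 to 2 against 20 ppm (0 to 1 each way) and 483 to 1166 against 10 ppm (350 to 849 higher, 133 to 317 lower). The cause of these moves was not tested. The groups share replicate numbers, and the main fit did not take these to pair the samples. Same-numbered arrays at 40 ppm and 0 ppm correlated at 0.32, 0.21, 0.096, 0.078 and 0.48 in their deviations, all positive. Whether the numbers mark something shared between groups was not tested. With the replicate block 2424 genes changed against 0 ppm (1440 higher, 984 lower) and 1387 against 10 ppm. Of the 5 arrays at 40 ppm 3 correlated best with their own number at 0 ppm. Signals near the nonspecific controls and near saturation limit the sizes given.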
